A study of Mus musculus with 12 samples.

Results

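The cells described here carry an ILC3 name in the authors' deposited cell table and come from inflamed and healthy mouse joints. They were chosen as the cells of experiment 1 whose annotation starts with ILC3 and whose condition is either untreated (healthy) or serum transfer arthritis (STA) with Il23mc, which the sample titles give as IL23. The rule found 1409 cells, 698 healthy and 711 from STA with Il23mc, of 3188 annotated lymphoid cells in the same 2 wells and of 8042 cells in the whole table. Every mouse in both groups was R5 x R26tdTomato with the genotype Il5 wt/Cre; R26 tdTom/tdTom, aged 8 to 10 weeks, and the tissue was the synovium of ankle and wrist joints. In these mice Cre is made from the Il5 locus and leaves a tdTomato mark in the cells that made it and in their progeny. The sort took viable CD45+ tdTomato+ cells without surface CD3, TCRb, TCRgd, CD11b or GR-1, so ILC3 that had never switched on Il5 were not sampled. Each group was a single 10x well, which means that the well and the condition cannot be told apart. The groups differ in both arthritis and Il23mc, and mice with STA alone are not part of the comparison. What arthritis and Il23mc each contributed therefore cannot be told apart, and "with Il23mc" below always means STA with Il23mc. The labels speak of 4 animals pooled per well, whereas 3 hashtags per well were assigned to cells, and the hashed mouse was the replicate (n = 3 a group). The same 3 hashtag barcodes were used in both wells, and they are shown because every replicate in the comparison rests on them.
mouse 1: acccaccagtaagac
mouse 2: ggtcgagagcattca
mouse 3: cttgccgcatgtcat

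ILC3 are tissue-resident lymphocytes without a rearranged antigen receptor. They sense IL-23 and IL-1β from myeloid cells through Il23r and Il1r1, and answer through STAT3 with IL-17A, IL-17F and IL-22. The same cytokine programme is used by γδ T cells of the joint and skin, which differ from ILC3 in carrying the CD3 complex and a T cell receptor. ILC2 depend on GATA3 and make IL-5 and IL-13, and the Il5-driven mark used here is best known as a mark of that lineage.

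Cell numbers differed widely between the mice. The healthy mice 1, 2 and 3 contributed 85, 150 and 463 ILC3-annotated cells, and the mice with Il23mc contributed 462, 221 and 28. Summed unique molecular identifiers (UMIs, one per captured transcript) were 437743, 793736 and 2653234 in the healthy mice and 2727118, 1344422 and 118674 in the mice with Il23mc, so mouse 3 of the second group is by far the least precise. Levels below are UMIs of a gene per 1000000 UMIs of the mouse's cells (CPM), always in the order mouse 1, 2 and 3. Of all barcodes, 1 was shared between the 2 wells.

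The annotation was checked against transcripts of its own and of neighbouring cell types, and in both groups the defining markers only partly matched the name. In healthy ILC3-annotated cells a UMI of Gata3 was found in 84.7%, 89.3% and 87.5% of cells. Il17a was seen in 2.35%, 1.33% and 0.648% of them. Healthy cells under this name were therefore mostly Gata3-positive with little Il17a. In mice with Il23mc, Il17a was found in 47.0%, 56.1% and 21.4% of cells, and Il22 in 30.7%, 39.8% and 21.4%. The γδ T cell receptor constant gene Trdc was found in 34.8%, 33.5% and 7.14% of the same cells. Because of these markers the cells are called ILC3-annotated throughout.

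Transcripts of the CD3 complex split the ILC3-annotated cells of the mice with Il23mc. A UMI of Cd3d or Cd3e, which encode the δ and ε chains of CD3, was held by 0 of 85, 2 of 150 and 33 of 463 healthy cells and by 410 of 462, 180 of 221 and 7 of 28 cells with Il23mc. As shares these were 0%, 1.33% and 7.13% against 88.7%, 81.4% and 25.0%; the count of 0 in healthy mouse 1 allows a share of up to 3.53%. Every mouse with Il23mc lay above every healthy mouse, although mouse 3 held far fewer such cells than mice 1 and 2. The mean share was 65.1% ± 34.9 (SD, n = 3) against 2.82% ± 3.79 (SD, n = 3), a difference of 62.2 percentage points with a two-sided exact permutation p = 0.1 (0.30 after Benjamini-Hochberg adjustment over 3 shares). That is the smallest p that 3 mice against 3 can give. In ILC2 of the same wells the share was 1.64%, 1.20% and 1.31% in the healthy mice and 33.0%, 12.5% and 6.20% in the mice with Il23mc. A UMI of any of 10 T cell receptor genes was far less selective, since 95.3%, 91.3% and 96.1% of healthy and 99.1%, 98.6% and 92.9% of Il23mc ILC3-annotated cells held one. Surface CD3 and T cell receptor had been gated out, and why transcripts were present in cells that passed the gate was not tested.

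**Figure D1:**
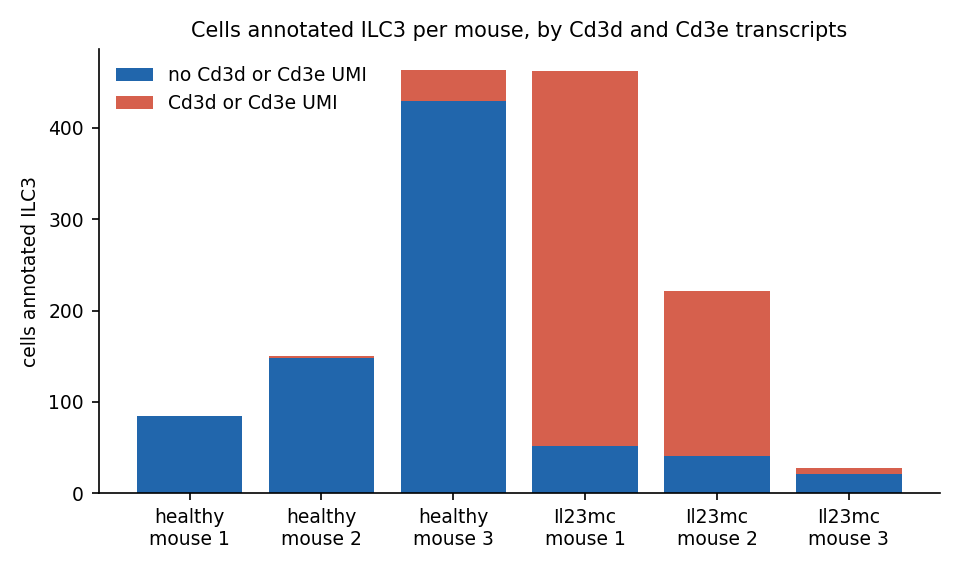
Number of ILC3-annotated cells per mouse (bars, healthy mice 1 to 3 and mice 1 to 3 with Il23mc), stacked by whether the cell held a Cd3d or Cd3e UMI. Cells with CD3 transcripts make up 410 of 462 and 180 of 221 cells in mice 1 and 2 with Il23mc, and 33 of 463 in the healthy mouse with most of them.

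Over all cells, the size of the annotated population and its subdivision did not separate the groups. ILC3-annotated cells were 29.5%, 24.4% and 63.2% of annotated lymphoid cells in the healthy mice and 69.4%, 40.0% and 8.38% in the mice with Il23mc. The range within each group was far wider than the difference of the means, 0.20 percentage points (exact permutation p = 1, adjusted 1). Among cells without Cd3d and Cd3e the share was 29.8%, 24.4% and 61.9% against 27.2%, 12.4% and 6.84%, with overlap (difference -23.2 points, exact permutation p = 0.2). The annotation splits the cells into ILC3-1 and ILC3-2, and ILC3-1 made up 35.3%, 46.7% and 35.6% of healthy and 35.5%, 40.7% and 32.1% of Il23mc cells (difference -3.08 points, exact permutation p = 0.6, adjusted 0.90). Without the CD3-transcript cells the share of ILC3-1 was 35.3%, 47.3% and 34.4% against 9.62%, 19.5% and 23.8%, so that every mouse with Il23mc then lay below every healthy mouse (difference -21.4 points, exact permutation p = 0.1, the smallest possible).

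Because of this split, gene expression was compared over all ILC3-annotated cells and again over the 663 healthy and 114 Il23mc cells without Cd3d and Cd3e UMIs. Over all cells, 1691 of 6953 genes tested passed an adjusted p of 0.05 in edgeR's quasi-likelihood test, which is 24.3% of them, 12.8% higher and 11.5% lower with Il23mc. Without the CD3-transcript cells 372 of 3728 genes passed, or 9.98%, with 5.95% higher and 4.02% lower. Of 3726 genes tested in both, 236 passed in both in the same direction, which is 22.6% of the 1044 calls over all cells among them and 63.8% of the 370 without CD3-transcript cells, and 4 passed in opposite directions. Gene lists are described by the members that passed the filter on low counts, and a gene at a high level in 1 group could pass it for that reason, so these counts describe the lists and test nothing. The counts of each list stand beside the shares over all genes tested given above. The count over all cells fell to 1016 without healthy mouse 3, to 803 without Il23mc mouse 1 and to 931 without Il23mc mouse 2. The count without CD3-transcript cells fell to 213 when Il23mc mouse 1 was left out.

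The type 3 cytokines Il22, Il17a and Il17f rose strongly over all ILC3-annotated cells. The 250 bases before the RefSeq start of Il17a and Il17f are printed because these genes are among the leading ones of the comparison and 1 of the 2 holds the AP-1 motif TGANTCA, given in capitals, which factors such as BATF with JUN bind. Both sequences read 5′ to 3′ on the gene's strand of GRCm38.p6, at chr1:20730655-20730904 (plus) for Il17a and at chr1:20784271-20784520 (minus) for Il17f.
Il17a: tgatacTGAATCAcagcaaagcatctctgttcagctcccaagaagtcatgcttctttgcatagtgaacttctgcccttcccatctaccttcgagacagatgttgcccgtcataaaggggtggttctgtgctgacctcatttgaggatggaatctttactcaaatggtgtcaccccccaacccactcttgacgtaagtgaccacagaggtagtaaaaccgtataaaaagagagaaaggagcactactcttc
Il17f: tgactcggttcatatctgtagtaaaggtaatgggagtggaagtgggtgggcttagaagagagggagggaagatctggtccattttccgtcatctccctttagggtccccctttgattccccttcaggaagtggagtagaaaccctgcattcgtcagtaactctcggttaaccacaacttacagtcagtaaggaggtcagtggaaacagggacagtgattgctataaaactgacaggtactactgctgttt
Searched on both strands, Il17a held 1 AP-1 motif and Il17f none, and neither held the STAT motif TTCNNNGAA; the same window of Il22 held neither motif. Among 32817 promoter windows of this length, 6.75% hold the AP-1 motif and 7.01% the STAT motif, so a match is a description of these letters and no more.

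Il22, which encodes the cytokine that acts on epithelial and stromal cells, measured 18.3, 0 and 2.26 CPM in healthy mice and 1768, 3268 and 1222 CPM with Il23mc. Il17a, the neutrophil-recruiting cytokine gene, measured 27.4, 11.3 and 5.28 against 1332, 2671 and 152 CPM. For both genes all mice with Il23mc lay above all healthy mice, and mouse 3 was the lowest of them. The log2 differences were 9.13 (SE 0.646, adjusted p = 1.91e-06) for Il22 and 7.18 (SE 0.88, adjusted p = 9.29e-05) for Il17a. Il17f, its close relative, gave a log2 difference of 5.78 (SE 0.618, adjusted p = 3.54e-05). In mouse 3 the Il22 level rested on 1 cell, which held 140 of that mouse's 145 UMIs. Of 7 tested type 3 cytokines 4 rose, 1 fell and 2 gave no call (median log2 difference 1.06, beside -0.01 for all genes tested). The fourth that rose was Ltb, the membrane-bound lymphotoxin chain (65.2 to 91.4 against 126 to 149 CPM). Lta, which encodes soluble lymphotoxin, fell by 1.55 on the log2 scale (adjusted p = 0.0151) although its values overlapped between the groups, with adjusted p = 0.10 without healthy mouse 3 and 0.25 without Il23mc mouse 1, and 0.38 in DESeq2. Csf2, which encodes GM-CSF, measured 110, 107 and 32 against 18.7, 59.5 and 0 CPM and did not pass (adjusted p = 0.222).

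The receptors through which IL-23 and IL-1β act were nearly undetected in healthy cells. Il23r measured 0, 2.52 and 0.754 CPM in healthy mice and 128, 128 and 33.7 CPM with Il23mc (log2 difference 6.79, SE 0.487, adjusted p = 1.94e-06). Il1r1 measured 2.28, 1.26 and 0.754 against 233, 206 and 101 CPM (7.56, SE 0.417, adjusted p = 6.66e-07). Both receptors separated the groups completely. Il2ra, the high-affinity IL-2 receptor chain, rose from 324, 310 and 223 to 1279, 1339 and 775 CPM. Kit, the stem cell factor receptor found on many ILC, went the other way, from 203, 229 and 166 to 19.8, 29.8 and 143 CPM (-2.60, SE 0.423, adjusted p = 0.000809; 0.19 in DESeq2), with mouse 3 close to the healthy values. The chemokine receptor gene Ccr6 was also lower, at 194, 136 and 150 against 103, 79.6 and 59 CPM (-0.76, SE 0.205, adjusted p = 0.018), with adjusted p = 0.12 without Il23mc mouse 2, 0.060 without healthy mouse 1 and 0.067 in DESeq2. Of 7 type 3 receptor genes tested, 3 rose, 2 fell and 2 did not pass (median 0.11).

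Transcription factors and targets of the IL-23 pathway changed in both directions. Zbtb16, which encodes PLZF, a factor of innate T cells and ILC precursors, measured 4.57, 0 and 3.77 CPM in healthy mice and 45.8, 46.1 and 42.1 CPM with Il23mc (3.95, SE 0.380, adjusted p = 1.65e-05). Batf, the AP-1 partner needed for IL-17 production in T cells, measured 43.4, 27.7 and 41.5 against 286, 178 and 143 CPM. Both genes passed the test and were raised in all 3 mice with Il23mc, mouse 3 included. The list of type 3 transcription factors had 4 of 10 tested members higher and 2 lower (median 0.25). Of 16 IL-23 and STAT3 genes tested, 8 rose and 2 fell (median 0.58). Among those that rose, Socs3, the feedback inhibitor of STAT3, went from 9.14, 7.56 and 17.3 to 104, 99.7 and 59 CPM, and Prdm1, encoding Blimp-1, from 9.14, 2.52 and 4.52 to 53.5, 47.6 and 16.9 CPM. Hif1a, the oxygen-sensing factor, measured 281, 266 and 294 against 1091, 950 and 758 CPM (1.81, SE 0.169, adjusted p = 1.36e-05).

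**Figure D2:**
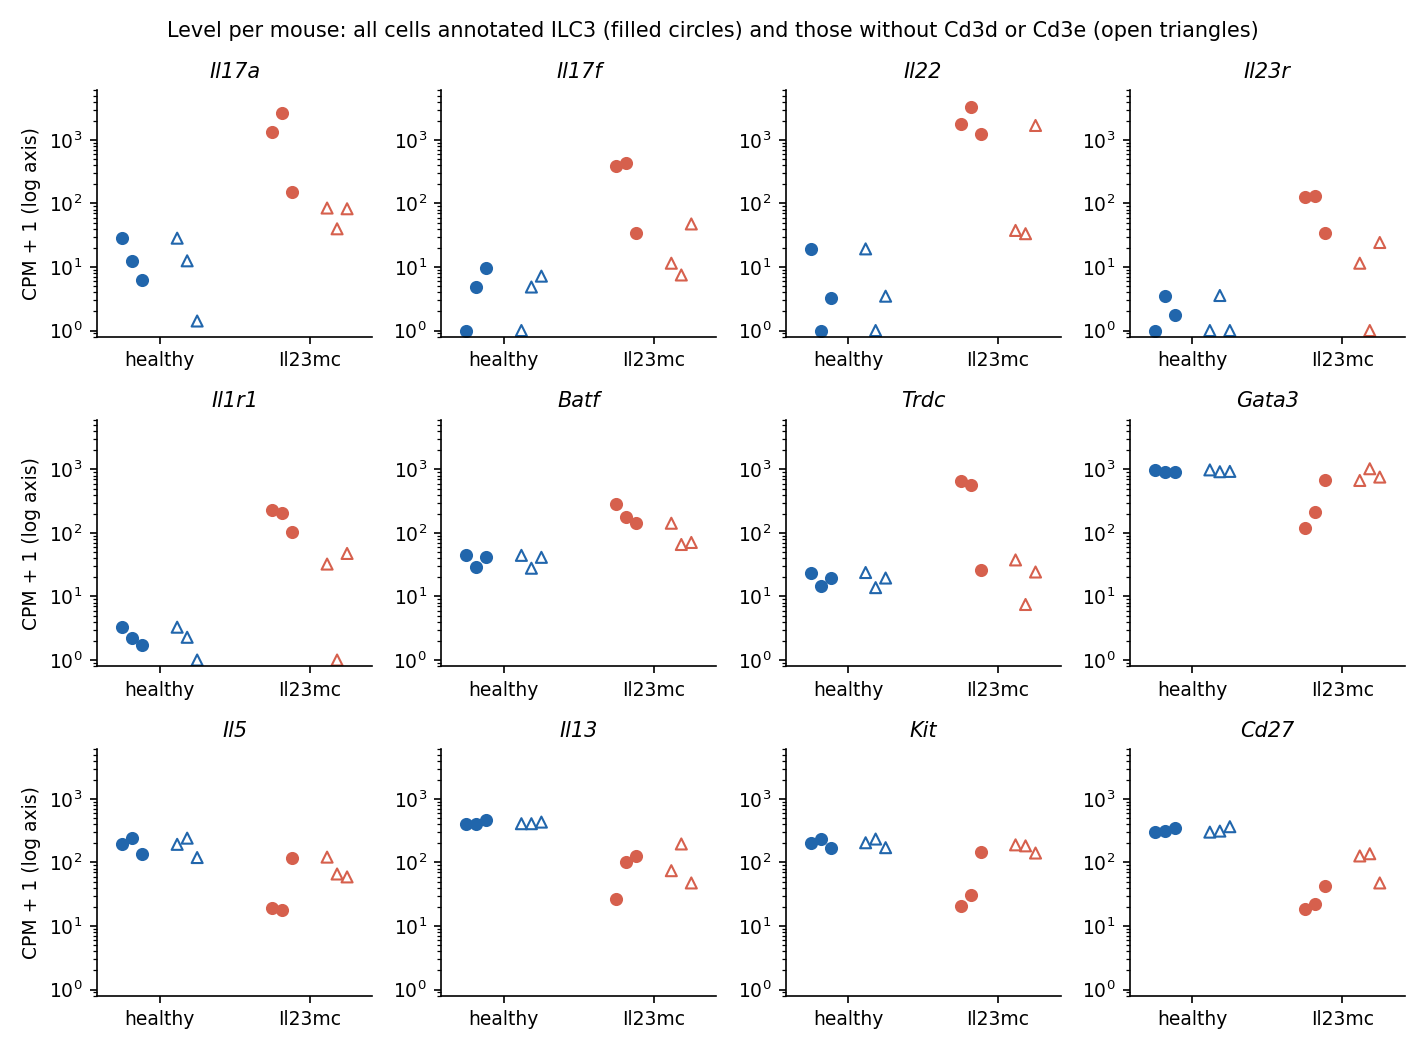
Level of 12 genes in each mouse as CPM + 1 on a log axis, with filled circles for all ILC3-annotated cells and open triangles for those without Cd3d and Cd3e UMIs. For Il17a the triangles of mice 1 and 2 with Il23mc lie far below their circles, at 83.7 and 38.9 against 1332 and 2671 CPM. The symbols of healthy mice 1 and 2 nearly coincide, while the triangle of healthy mouse 3 lies below its circle.

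T cell receptor genes rose beside the cytokines, and these are the values that move with them. Cd3d measured 0, 1.26 and 20 CPM in healthy mice and 906, 981 and 202 with Il23mc (6.04, SE 0.655, adjusted p = 3.91e-05). Trdc measured 22.8, 13.9 and 18.8 against 656, 571 and 25.3 CPM (4.77, SE 0.619, adjusted p = 0.000148). For Trdc mouse 3 with Il23mc lay just above the healthy range, and mice 1 and 2 far above it. The γ chain constant genes Tcrg-C1 and Tcrg-C2 rose by 5.13 and 6.04 on the log2 scale, and since they are similar in sequence their reads may be split between them. Trac, the constant gene of the α chain, rose from 27.4, 27.7 and 40 to 373, 165 and 169 CPM. Of 12 T cell receptor complex genes tested, 9 rose and 1 fell (median 3.06), and of 13 T cell signalling genes 9 rose and 3 fell (median 1.34). The 13 listed receptor complex genes summed to 1131, 1063 and 1218 CPM in healthy mice and 5571, 5287 and 1803 CPM with Il23mc. Among genes known from IL-17-producing γδ T cells, Blk and Cd163l1 moved likewise, while Sox13 and Tcrg-V6 were too low to be tested. Blk, a Src-family kinase, held 2 UMIs in healthy against 710 in Il23mc cells, a log2 ratio of 8.36 (95% counting interval 6.50 to 11.41). Cd163l1, the scavenger receptor SCART1, rose from 6.85, 6.3 and 5.28 to 108, 173 and 42.1 CPM. How the cytokine differences change without these cells was measured in the second comparison.

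Cytotoxic effector and checkpoint genes also separated the groups over all cells. Gzmb, which encodes the protease granzyme B, measured 2.28, 1.26 and 8.29 CPM in healthy mice and 1349, 1228 and 674 CPM with Il23mc (7.65, SE 0.412, adjusted p = 6.66e-07). Gzma, a related protease gene, had 0 UMIs in all healthy cells and 1326 with Il23mc, which makes it at least 410-fold higher; the granzyme genes resemble each other, and reads may be split among them. Prf1, encoding the pore-forming perforin, reached only 29, 11.9 and 25.3 CPM from 0, 0 and 1.88. Ctla4, an inhibitory receptor, measured 11.4, 8.82 and 3.02 against 1313, 1146 and 354 CPM (7.50, SE 0.559, adjusted p = 2.43e-06), and Pdcd1, encoding PD-1, 0, 22.7 and 3.02 against 248, 230 and 169 CPM. Il10, the anti-inflammatory cytokine gene, held 2 UMIs against 197 (log2 ratio 6.51, 95% counting interval 4.64 to 9.57). Of 7 type 1 and NK genes tested, 5 rose and 1 fell (median 2.63). The NK gene Ncr1 had no UMI in any of the 6 mice, and Tbx21, encoding T-bet, stayed at 3.77 CPM or less and was not tested. Ifng was not tested either, at 0, 3.78 and 4.52 against 17.2, 136 and 0 CPM.

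The ILC2 programme moved in the opposite direction over all cells. Gata3 measured 982, 906 and 902 CPM in healthy mice and 121, 212 and 683 CPM with Il23mc, so that mouse 3 kept most of the healthy level (-1.70, SE 0.444, adjusted p = 0.015). Its adjusted p was 0.095 without Il23mc mouse 2, 0.056 without healthy mouse 3 and 0.051 without Il23mc mouse 1, and 0.19 in DESeq2. Il13, a cytokine of airway and tissue repair responses, measured 407, 403 and 468 against 26, 102 and 126 CPM (-2.59, SE 0.413, adjusted p = 0.000708). Il5, the eosinophil growth factor whose locus drives Cre in these mice, measured 192, 238 and 134 against 18, 17.1 and 118 CPM (-2.94, SE 0.446, adjusted p = 0.000479; 0.13 in DESeq2), with no overlap but mouse 3 just under the healthy range. None of the 9 tested ILC2 identity genes rose in edgeR, at an unadjusted p below 0.05 or in DESeq2, while 6 fell and 3 did not pass (median -1.61; 7 lower at an unadjusted p below 0.05, 2 in DESeq2); of 7 type 2 cytokine and effector genes 1 rose and 3 fell (median -1.02). Areg, which encodes the repair factor amphiregulin, measured 605, 336 and 528 against 416, 845 and 354 CPM and did not pass (0.25, adjusted p = 0.587).

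Surface and costimulatory genes of healthy cells were among those with the largest decreases. Cd9, a tetraspanin, measured 105, 152 and 156 CPM in healthy mice and 3.67, 1.49 and 16.9 CPM with Il23mc (-5.30, SE 0.353, adjusted p = 1.63e-06). Cd27, a costimulatory receptor of the TNF receptor family, measured 299, 314 and 348 against 17.6, 20.8 and 42.1 CPM (-3.93, SE 0.223, adjusted p = 6.66e-07). For both genes every mouse with Il23mc lay far below every healthy mouse, with mouse 3 the highest of the former. Cd83, an activation marker, went from 201, 125 and 111 to 6.6, 3.72 and 50.6 CPM. Dmxl2, which takes part in vesicle acidification, held 326 UMIs in healthy and 3 in Il23mc cells, a log2 ratio of -6.87 (95% counting interval -9.16 to -5.31), and Nsg2, a neuronal vesicle protein gene, 198 and 2 (-6.74, interval -9.79 to -4.87). Activation genes as a list were mixed, with 4 of 18 tested higher and 7 lower (median 0.05), and so were trafficking genes, with 7 of 14 higher and 5 lower (median 0.42). In that list Ccr2, the receptor for monocyte chemoattractants, rose from 66.2, 132 and 74.6 to 499, 501 and 261 CPM. Ccr8, a skin- and type 2-associated chemokine receptor, fell from 41.1, 21.4 and 30.2 to 1.1, 2.23 and 8.43 CPM, although the healthy hashtag of experiment 2 was also low at 9.69 CPM. Of 9 ILC precursor genes 5 rose and 3 fell (median 1.99).

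Most tested interferon-induced genes rose. Of 31 listed, 25 were tested over all cells, and of these 19 rose, none fell and 6 did not pass (median 1.90), with 21 higher and 0 lower at an unadjusted p below 0.05 and 17 higher and 0 lower in DESeq2. Gbp2, a guanylate-binding GTPase of cell-autonomous defence, measured 2.28, 7.56 and 7.16 CPM in healthy mice and 130, 71.4 and 152 CPM with Il23mc (4.09, SE 0.349, adjusted p = 7.22e-06). Igtp, an immunity-related GTPase, followed with 2.28, 5.04 and 12.4 against 86.9, 78.1 and 118 CPM. Mouse 3 was the highest for both, unlike for the cytokines.

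All 5 tested genes of the MHC class II pathway, which presents peptides to CD4+ T cells, rose over all cells (median 1.58). H2-Aa, the α chain of I-A, measured 11.4, 36.5 and 20 CPM in healthy mice and 56.1, 115 and 615 CPM with Il23mc (2.79, SE 0.752, adjusted p = 0.0176; 0.092 without healthy mouse 3). Cd74, the invariant chain, measured 139, 312 and 144 against 278, 391 and 1036 CPM, with Il23mc mouse 1 below healthy mouse 2 (1.41, SE 0.437, adjusted p = 0.0334). Mouse 3, which had the fewest CD3-transcript cells, was the highest for both. Reads of class II genes may be split with near-identical family members.

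Genes of energy metabolism moved less evenly. Of 19 glycolysis genes tested over all cells, 11 rose in edgeR and 7 in DESeq2, and none fell in either (median 0.69), with 1 lower at an unadjusted p below 0.05. Among those that rose were Slc2a3, a glucose transporter (9.14, 11.3 and 12.8 against 78.8, 84.1 and 25.3 CPM), and Slc16a3, a lactate exporter (11.4, 7.56 and 22.6 against 87.6, 67.7 and 42.1 CPM). Eno1 and Eno1b, near-identical enolase genes between which reads may be split, gave -0.53 (adjusted p = 0.0504) and 2.54. Both were included as a check, as genes that differ by well, so their values are not read as a change in glycolysis. Of 20 oxidative phosphorylation genes 4 rose and 1 fell (median 0.22). Of 8 lipid genes 2 rose and 1 fell (median 0.17). Dgat1, which makes triacylglycerol, measured 123, 136 and 121 against 930, 1010 and 716 CPM (2.89, SE 0.184, adjusted p = 1.37e-06), and Plin2, which coats lipid droplets, 4.57, 16.4 and 13.6 against 156, 126 and 101 CPM. None of 16 cell cycle genes rose in edgeR, at an unadjusted p below 0.05 or in DESeq2, and 2 fell (median -0.32), beside 12.8% higher and 11.5% lower over all genes tested in edgeR. Immediate early genes, which respond to tissue handling as well as to activation, had 2 of 18 higher and 9 lower (median -0.71), and heat shock genes 2 of 11 higher (median 0.42). Atf3, a stress-induced factor, fell from 324, 394 and 379 to 43.3, 59.5 and 169 CPM, whereas Egr1, a growth-response factor, rose from 48, 26.5 and 34.3 to 199, 90.7 and 101 CPM. Red cell markers, summed over 4 genes, were at 107, 35.3 and 71.6 CPM in the healthy well and at 0.367, 0 and 0 CPM in the other, a difference between wells whose part in other results was not tested.

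In mice 1 and 2 with Il23mc, the cells with CD3 transcripts held nearly all type 3 transcripts. In mice 1, 2 and 3 they held 93.0%, 88.5% and 27.6% of all UMIs of the ILC3-annotated cells, but 99.6%, 99.8% and 61.1% of those of Il17a. For Il22 the shares were 99.9%, 99.9% and 0%, and for Il23r 99.4%, 100% and 50.0%. In mice 1 and 2 the cytokines and the IL-23 receptor were thus almost all on the CD3-transcript side, while in mouse 3, with 7 such cells, they were not. For ILC2 genes the shares were 61.1%, 44.6% and 19.8% of Gata3 UMIs and 80.3%, 78.1% and 73.3% of Il13 UMIs, below those of the type 3 genes in mice 1 and 2 but for Il13 not in mouse 3. For class II genes they were 19.6%, 3.87% and 1.37% of H2-Aa and 54.5%, 38.1% and 8.13% of Cd74 UMIs. The CD3-transcript cells measured 79.3, 107 and 488 CPM of Gata3, against 670, 1025 and 757 CPM in the other ILC3-annotated cells of the same mice.

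When the cells with Cd3d or Cd3e UMIs were left out, 85, 148 and 430 healthy cells and 52, 41 and 21 cells with Il23mc remained, so fewer genes could be tested. The remaining cells had median depths of 5141, 5006 and 5309 UMIs in healthy mice and 3645, 3569 and 3120 with Il23mc. The Il23mc cells left out had 5417, 5542.5 and 4394. Whether low depth hid CD3 transcripts in some of the remaining cells was not tested. Il17a then measured 27.4, 11.5 and 0.412 CPM in healthy mice and 83.7, 38.9 and 81.5 CPM with Il23mc (3.29, SE 0.865, adjusted p = 0.0243). Its adjusted p was 0.0502 without healthy mouse 3, 0.0911 without healthy mouse 2 and 0.247, 0.0687 and 0.0955 without Il23mc mouse 1, 2 and 3 in turn, and DESeq2 gave 0.275. Il22 measured 18.3, 0 and 2.47 against 36.6, 32.4 and 1689 CPM (6.93, SE 1.32, adjusted p = 0.00276), and without Il23mc mouse 3, whose level rests on the single cell named above, the difference was 3.02 with adjusted p = 0.13. Il17a and Il22 were still higher in each mouse with Il23mc than in any healthy mouse. In mice 1 and 2 with Il23mc these levels were a small part of those over all cells, whereas in mouse 3 they were not. As a share of cells, an Il22 UMI was found in 13.5%, 9.76% and 28.6% and an Il17a UMI in 9.62%, 12.2% and 19.0% of the Il23mc cells that remained. ILC2 without CD3 transcripts in the same well gave 17.2%, 10.8% and 16.1% for Il22 and 6.25%, 11.6% and 8.26% for Il17a. Median depth was 3645, 3569 and 3120 UMIs in the ILC3-annotated and 3832, 4308 and 3566.5 in the ILC2 cells. For Il22 the shares in mice 1 and 2 lay below those of ILC2, so no level particular to the ILC3-annotated cells is read from them, and mouse 3 rests on 21 cells. For Il17a the shares lay above those of ILC2 in each mouse, narrowly in mouse 2, and this difference was not tested.

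Il23r and Il17f were too low to be tested without the CD3-transcript cells. Il23r measured 0, 2.56 and 0 CPM in healthy mice and 10.5, 0 and 23.3 CPM with Il23mc, and Il17f 0, 3.84 and 6.17 against 10.5, 6.49 and 46.6. Mouse 3 was the highest for both, and each Il23mc value here is a handful of UMIs at most. Of 5 type 3 cytokines tested, Il17a and Il22 rose and 3 did not pass (median 0.51 beside 0.00 for all genes tested), and none passed in DESeq2. Of 5 type 3 receptor genes 2 rose and 1 fell (median 0.37), of 7 transcription factors 1 rose (median 0.38), and of 12 IL-23 and STAT3 genes 3 rose (median 0.37). Over all genes tested 5.95% were higher and 4.02% lower, and with lists this short nothing is read from these counts. Ccr6 fell further than over all cells, from 194, 133 and 154 to 57.6, 38.9 and 81.5 CPM (-1.44, SE 0.304, adjusted p = 0.00603; 0.052 without Il23mc mouse 1). Il7r, the IL-7 receptor on which ILC survival depends, rose from 884, 935 and 959 to 1784, 1569 and 1141 CPM (0.77, SE 0.151, adjusted p = 0.00353).

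Gata3 and Kit no longer separated the groups. Gata3 measured 982, 919 and 930 CPM in healthy cells without CD3 transcripts and 670, 1025 and 757 CPM in those with Il23mc (-0.14, SE 0.169, adjusted p = 0.702), and Kit 203, 233 and 170 against 188, 182 and 140 CPM (adjusted p = 0.972). Of 9 ILC2 identity genes none passed in either direction in edgeR or DESeq2 (median -0.04), and 3 were higher at an unadjusted p below 0.05. Over all genes tested 9.98% passed in edgeR, so 0 of 9 is near that share. Il13 still fell, from 407, 407 and 431 to 73.2, 195 and 46.6 CPM (-1.85, SE 0.299, adjusted p = 0.000715). For Il5 the groups met, at 192, 240 and 119 against 120, 64.9 and 58.2 CPM, and the test was not passed (-1.0, SE 0.348, adjusted p = 0.0889). Areg did not pass, at 605, 330 and 546 against 586, 571 and 268 CPM (0.06, SE 0.253, adjusted p = 0.937). Among 5 type 2 cytokine and effector genes tested, Il13 was the only one that fell. Calca, which encodes the neuropeptide CGRP, was the only one that rose, from 43.4, 153 and 157 to 570, 623 and 303 CPM (2.09, SE 0.328, adjusted p = 0.000535).

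T cell receptor genes could mostly not be tested in these cells, which were chosen for lacking Cd3d and Cd3e UMIs. Of 5 tested Trbc1 fell and 4 did not pass (median 0.08), with 0 higher at an unadjusted p below 0.05 or in DESeq2. The other 8 of 13 list genes, Trac, Trdc and Tcrg-C1 among them, were too low to test. Over all genes tested 5.95% were higher, so 0 of 5 is near that share and nothing is read from it. The sum over the list was 1131, 1064 and 1126 CPM in healthy and 1109, 895 and 850 CPM in Il23mc cells, in which Cd3d and Cd3e are at 0 by the selection. Cd3g, the γ chain of CD3, which the selection did not use, measured 148, 107 and 146 against 157, 90.8 and 93.2 CPM. Of 9 T cell signalling genes 1 rose and 3 fell (median -0.63). Among those that fell was Cd28, the costimulatory receptor, from 235, 189 and 223 to 20.9, 123 and 46.6 CPM (-1.71, adjusted p = 0.0088; 0.080 without Il23mc mouse 1).

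Class II genes were higher in cells without CD3 transcripts than the comparison of all cells showed. H2-Aa measured 11.4, 37.1 and 20.6 CPM in healthy mice and 644, 966 and 839 CPM with Il23mc (5.17, SE 0.283, adjusted p = 5.05e-08). H2-Eb1, the β chain of I-E, measured 6.85, 32 and 19.8 against 487, 636 and 338 CPM (4.63, SE 0.322, adjusted p = 4.87e-07), and Cd74 139, 317 and 144 against 1805, 2108 and 1316 CPM (3.19, SE 0.28, adjusted p = 2.87e-06). The 3 mice with Il23mc were alike and far above the healthy mice for each. All 5 class II genes tested rose (median 3.95), including Ctss, which encodes the lysosomal protease cathepsin S (66.2, 34.5 and 36.6 against 146, 175 and 221 CPM). An H2-Aa UMI was found in 3 of 85, 6 of 148 and 26 of 430 healthy cells and in 27 of 52, 17 of 41 and 6 of 21 cells with Il23mc. As shares these were 3.53%, 4.05% and 6.05% against 51.9%, 41.5% and 28.6%. The latter lay above the 14.1%, 11.6% and 8.68% found in ILC2 without CD3 transcripts of the Il23mc well.

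Markers of antigen-presenting cells were examined beside these genes. Of 7 dendritic cell markers 3 were detected, H2-Aa among them, while Flt3, Clec9a, Cd209a and Itgax had no UMI in any of the 6 mice. The list's sum was 43.4, 58.8 and 38.3 CPM in healthy and 680, 979 and 862 CPM in Il23mc cells, of which H2-Aa was 644, 966 and 839. Of 11 myeloid markers 8 were detected and Adgre1, Itgam and C1qa were at 0, with sums of 2.28, 6.39 and 7.0 against 497, 6.49 and 23.3 CPM, so that only mouse 1 stood apart. B and plasma cell markers summed to 18.3, 20.5 and 13.2 against 41.9, 38.9 and 11.6 CPM, with 3 of 8 detected and Cd79a, Ms4a1, Jchain and Mzb1 among those at 0. Fibroblast markers summed to 7.67 to 11.4 CPM in healthy and 0 to 58.4 CPM in Il23mc cells, with 6 of 7 detected and Pdgfra at 0. Endothelial markers summed to 9.06 to 18.3 against 32.4 to 73.2 CPM, with 2 of 5 detected and Cdh5, Kdr and Emcn at 0. Mast cell markers summed to 176 to 238 against 140 to 204 CPM, nearly all of it Kit, with 5 of 8 detected and Tpsb2, Fcer1a and Ms4a2 at 0. The class II call does not rest on mouse 1: H2-Aa, H2-Eb1, H2-Ab1 and Cd74 passed in each of the 6 fits that left out 1 mouse.

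Interferon-induced genes rose in cells without CD3 transcripts as they did over all cells. Of 14 tested 13 rose and 1 did not pass (median 2.25). The list summed to 418, 478 and 537 CPM in healthy and 2396, 1835 and 1968 CPM in Il23mc cells. Igtp measured 2.28, 3.84 and 12.8 against 188, 201 and 93.2 CPM (4.26, SE 0.393, adjusted p = 4.17e-06). Gbp2 measured 2.28, 7.67 and 7.41 against 157, 64.9 and 116 CPM, and within the same mice the CD3-transcript cells gave 128, 72.3 and 244 CPM. The interferon genes were thus high on both sides of the CD3 split, unlike H2-Aa, which measured 11.8, 5.04 and 30.5 CPM in CD3-transcript cells. Ccl5, the chemokine RANTES, followed the class II pattern, with 13.7, 106 and 40.3 CPM in healthy and 1360, 1323 and 839 CPM in Il23mc cells without CD3 transcripts (4.50, SE 0.389, adjusted p = 2.86e-06) and 10.6, 26 and 0 CPM in those with them.

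**Figure D3:**
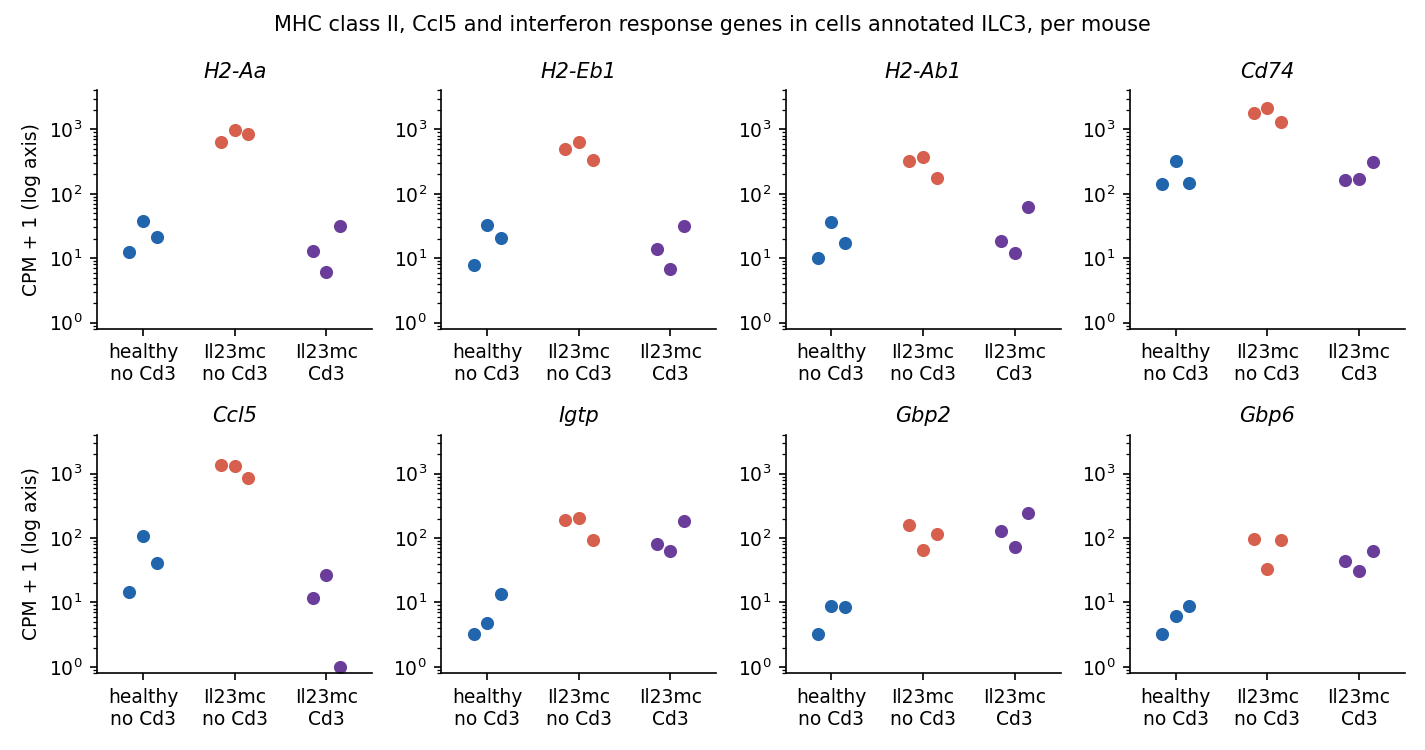
CPM + 1 per mouse on a log axis for 4 class II genes, Ccl5 and 3 interferon-induced genes in healthy cells without CD3 transcripts, Il23mc cells without them and Il23mc cells with them. H2-Aa lies at 644 to 966 CPM only in the Il23mc cells without CD3 transcripts, whereas Gbp2 is at 64.9 to 157 CPM in these and at 72.3 to 244 CPM in those with CD3 transcripts.

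Single checkpoint, cytokine-signalling and lipid genes rose without the CD3-transcript cells, while their lists were mixed or largely untested. Of 12 IL-23 and STAT3 genes tested 3 rose, and of 16 activation genes 3 rose and 6 fell (median -0.10). Ctla4 measured 11.4, 8.95 and 2.47 CPM in healthy and 429, 175 and 186 CPM in Il23mc cells (5.75, SE 0.459, adjusted p = 1.4e-06), and Pdcd1 0, 23 and 1.23 against 120, 117 and 116 CPM (4.27, SE 0.706, adjusted p = 0.000844). Gzmb gave a log2 difference of 5.06 (adjusted p = 8.68e-05), and of 4 type 1 and NK genes tested 2 rose and 1 fell (median 2.04). The 1 that fell was Nkg7, a cytotoxic granule membrane protein gene, from 210, 178 and 243 to 41.9, 71.3 and 46.6 CPM (-1.93, SE 0.284, adjusted p = 0.000323). The type 1 list thus moved in both directions. Stat4, which relays IL-12 and IL-23 signals, measured 64, 86.9 and 43.6 against 293, 169 and 210 CPM (1.93, SE 0.298, adjusted p = 0.000468). Hif1a rose by 1.31 (SE 0.171, adjusted p = 0.00012) and Il2ra by 0.94 (adjusted p = 0.00726; 0.051 without healthy mouse 3 or Il23mc mouse 1). Dgat1 measured 123, 134 and 121 against 753, 396 and 582 CPM (2.26, SE 0.203, adjusted p = 3.33e-06), and 2 of 4 lipid genes tested rose (median 0.86; 1 in DESeq2), with the other 12 listed too low to test. AA467197, an NF-κB-induced transcript of unsettled function, measured 11.4, 2.56 and 2.06 against 403, 77.8 and 594 CPM, and Acod1, the itaconate-producing enzyme of activated macrophages, 0, 5.11 and 2.88 against 157, 38.9 and 280 CPM. Cxcl3, a neutrophil chemokine gene, was highest in mouse 3, where a single cell held all 160 UMIs, of 185 in the Il23mc cells of this comparison.

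Several decreases seen over all cells were also present without the CD3-transcript cells, at smaller size. Cd9 measured 105, 155 and 156 CPM in healthy and 15.7, 6.49 and 23.3 CPM in Il23mc cells (-3.27, SE 0.422, adjusted p = 0.000111). Cd27 measured 299, 311 and 365 against 126, 136 and 46.6 CPM (-1.49, SE 0.244, adjusted p = 0.000756). Sfn, which encodes the 14-3-3 protein stratifin, measured 196, 171 and 212 against 36.6, 19.5 and 23.3 CPM (-2.74, SE 0.311, adjusted p = 3.18e-05). The groups did not overlap for any of the 3 genes. Tnfsf8, the CD30 ligand gene, fell by 2.54 on the log2 scale, though the healthy hashtag of experiment 2 (46.3 CPM) was as low as Il23mc mouse 1 (47.1 CPM). Of 12 trafficking genes 2 rose, Cxcr4 with 1.41 among them, and 1 fell (median 0.28), and of 6 ILC precursor genes 2 rose (median 0.11). Of 13 glycolysis genes 1 rose and 4 fell (median -0.19), whereas none had fallen over all cells. Eno1 gave -1.27 and its near copy Eno1b 1.75, but both belong to the check on genes that differ by well. Other genes of that check also passed here, and the part of the well in these results was not tested. Of 20 oxidative phosphorylation genes 1 fell. Of 8 cell cycle genes 2 rose (median -0.06), but for Mki67 in mouse 3 a single cell gave 29 of 30 UMIs. Of 16 immediate early genes 1 rose and 2 fell, and of 11 heat shock genes 2 rose (median 0.27).

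**Figure D4:**
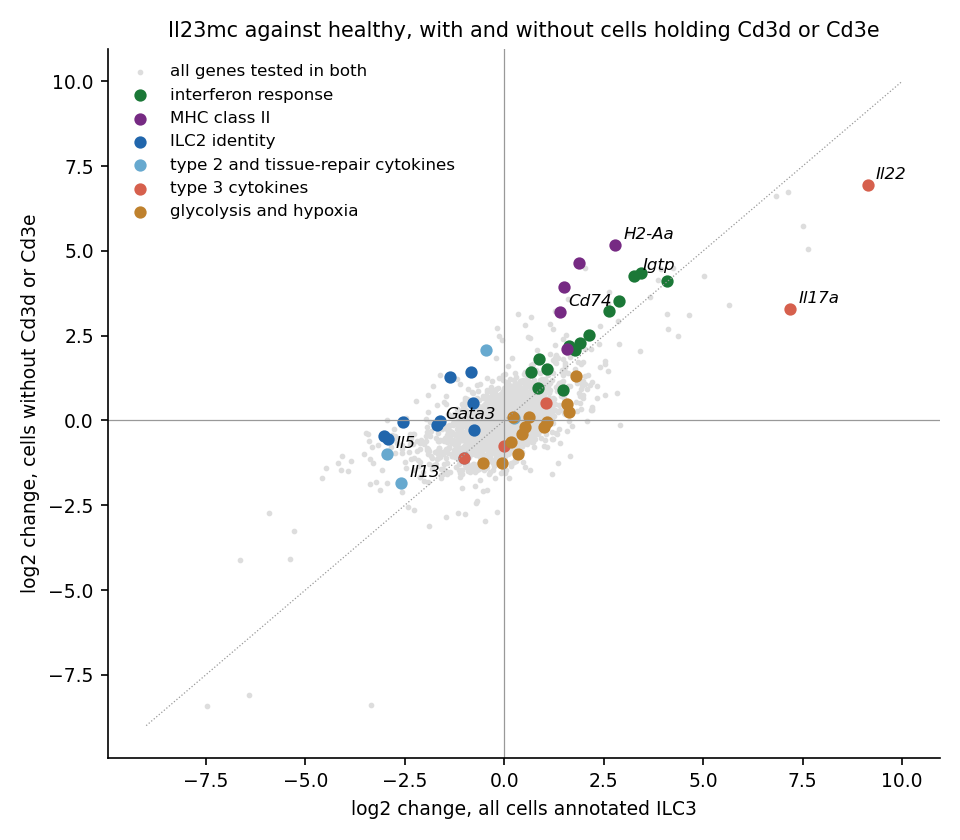
Log2 difference between Il23mc and healthy mice over all ILC3-annotated cells (x axis) and without cells holding Cd3d or Cd3e UMIs (y axis), 1 point per gene tested in both, with gene lists in colour. Class II genes lie above the diagonal (H2-Aa at 2.79 and 5.17), Il17a and Il22 below it (7.18 and 3.29, 9.13 and 6.93), and Gata3 moves from -1.70 to -0.14.

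The difference in ILC3-annotated cells was then set against that in the 1574 ILC2 of the same mice, in a single fit with the mouse as a term. The interaction passed for 338 of 8052 genes, or 4.20%, with 1.30% more positive and 2.89% more negative in ILC3-annotated cells. The count fell to 183 without healthy mouse 2, 174 without healthy mouse 3 and 188 without Il23mc mouse 2, rose to 519 without Il23mc mouse 3, and was 32 when cells with CD3 transcripts were left out of both classes.

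Type 2 genes diverged between the classes. Il5 measured 551, 977 and 842 CPM in healthy ILC2 and 777, 1618 and 909 CPM in ILC2 with Il23mc, so its fall was seen in ILC3-annotated cells only, and the difference between the changes was -3.42 on the log2 scale (SE 0.437, adjusted p = 0.00014). Gata3 was at 1141 to 1431 CPM in healthy ILC2 and at 1012 to 1383 CPM with Il23mc, a difference between changes of -1.95 (SE 0.294, adjusted p = 0.00058). Il13 fell in both classes, in ILC2 from 602, 688 and 861 to 167, 274 and 326 CPM, and further in ILC3-annotated cells (-1.21, SE 0.252, adjusted p = 0.0073; 0.059 without Il23mc mouse 1). Ccl1, a ligand of CCR8, was level in ILC2 and gave the difference -4.13 (SE 0.32, adjusted p = 8.2e-07). Of 10 ILC2 identity genes 5 were more negative in ILC3-annotated cells (median -1.67, beside -0.04 for all genes tested), and of 8 type 2 cytokine and effector genes 5 were (median -1.83). Without the CD3-transcript cells of both classes Il5 still passed (-1.82, adjusted p = 0.0037), whereas Gata3 gave -0.48 (adjusted p = 0.32), Il13 -0.66 (0.55) and Ccl1 -1.70 (0.078). Of the activation genes 7 of 18 were more negative and 3 more positive, and of the immediate early genes 5 of 18 were more negative.

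Effector genes on the positive side included Gzmb, which also rose in ILC2, from 7.55, 7.88 and 16.9 to 225, 115 and 38.5 CPM, and rose more in ILC3-annotated cells (4.43, SE 0.501, adjusted p = 4.4e-05). Ccr2 (1.97, SE 0.213, adjusted p = 2.8e-05), Batf (1.72, SE 0.266, adjusted p = 0.00065) and Il2ra (1.34, SE 0.255, adjusted p = 0.0037) rose more as well, and 5 of 19 glycolysis genes did (median 0.79). The interaction was not passed by Il17a (0.84, SE 0.958, adjusted p = 0.76) or Il22 (-2.68, SE 3.81, adjusted p = 0.81). In ILC2 these genes went from 0, 8.37 and 2.67 to 634, 231 and 23.3 CPM and from 0, 0 and 0 to 1269, 170 and 48.6 CPM. Their standard errors leave room for large differences in either direction. Of 12 T cell receptor complex genes Tcrg-C1 passed in the positive direction, with adjusted p = 0.11 without healthy mouse 1 or 2 and 0.095 without Il23mc mouse 2. Of 8 type 3 cytokines Csf2 was more negative, with adjusted p = 0.051 without healthy mouse 2. When cells with CD3 transcripts were left out of both classes, Gzmb still passed (3.78, adjusted p = 0.00083), whereas the adjusted p was 0.57 for Ccr2, 0.47 for Batf, 0.92 for Il2ra and 0.95 for Tcrg-C1.

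Interferon genes gave no difference between the classes that passed the test, 0 of 27 in edgeR in either direction (median -0.16), with 1 more positive and 2 more negative at an unadjusted p below 0.05. Over all genes tested only 4.20% passed, so 0 of 27 is near that share and does not show that the classes changed alike. Gbp2 went from 1.26, 12.8 and 5.33 to 125, 70.0 and 108 CPM in ILC2, and the difference between changes was 0.20 (SE 0.438, adjusted p = 0.89). Cd74 rose from 16.4, 23.6 and 38.2 to 546, 469 and 287 CPM in ILC2, more than over all ILC3-annotated cells (-2.93, SE 0.529, adjusted p = 0.0025; -1.26 with adjusted p = 0.069 without CD3-transcript cells), and it was the only 1 of 6 class II genes that passed (median -1.35). ILC2 summed to 869, 773 and 473 CPM of class II genes with Il23mc, from 54.1, 61.6 and 84.4 CPM in healthy mice. The ILC3-annotated cells without CD3 transcripts summed to 3500, 4313 and 2900 CPM, from 240, 468 and 249 CPM in healthy mice. Class II genes thus rose in both, from a lower healthy level in ILC2, and the ILC2 sums include cells with CD3 transcripts.

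**Figure D5:**
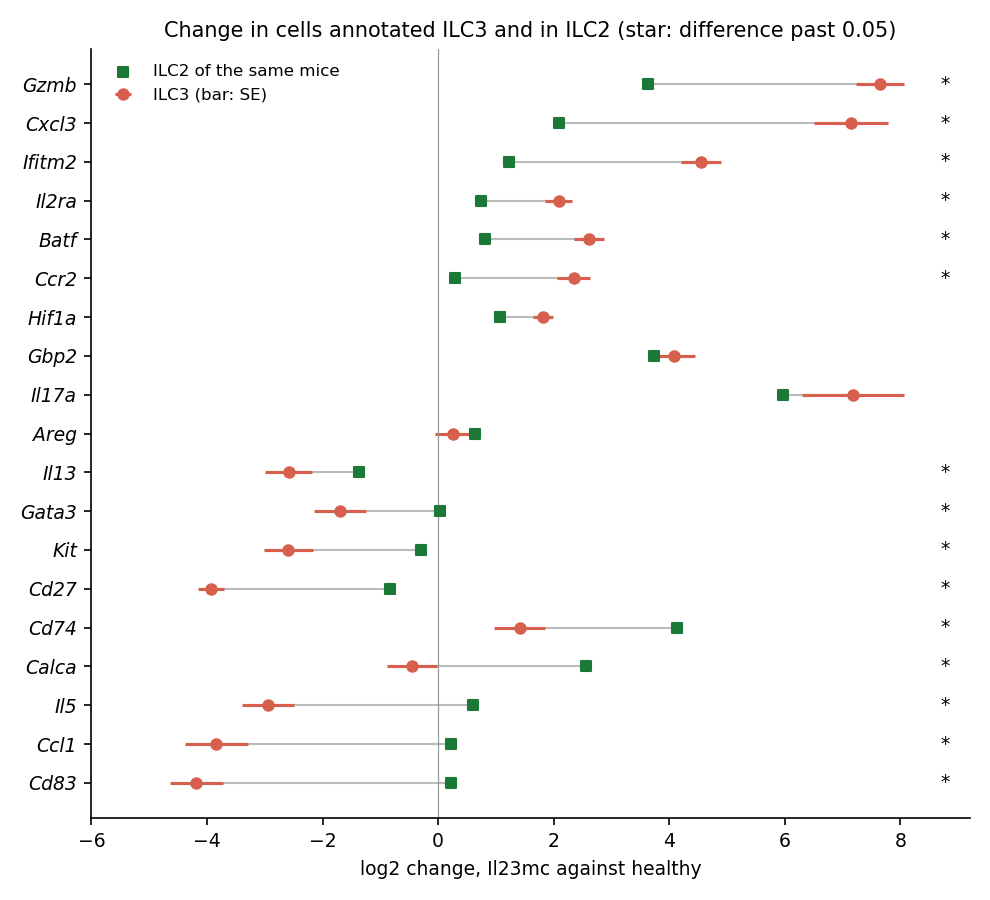
Log2 difference between Il23mc and healthy mice in ILC3-annotated cells (with SE bars) and in ILC2 of the same mice for 19 genes, with a star where the difference between the classes had an adjusted p below 0.05. Il5 and Gata3 fall only in ILC3-annotated cells, Gzmb rises in both and more in these, and Gbp2 rises in both with no star.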

How the data were processed

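Cells of synovial joints were profiled with 10x 3′ v3.1 chemistry. The deposited matrices hold raw UMI counts for 32285 genes made by Cell Ranger, whose version the file headers give as 6.1.2. The submitters' processing notes list 6.0.6 instead, and the build mm10. The cell table deposited by the authors gives each cell's UMI and gene counts, mitochondrial fraction, hashtag margin score, hashtag call, condition and annotation. The filters, hashtag caller and annotation method are not given in the sources used here, and doublets were treated only by the deposited hashtag calls. The hashed mouse was the replicate.

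Counts were summed per mouse over ILC3-annotated cells, again over those without Cd3d and Cd3e UMIs, and over ILC2. They were tested with edgeR 4.0.16 (TMM, filterByExpr, quasi-likelihood, R 4.3.3) and Benjamini-Hochberg adjustment at 0.05. The interaction with ILC2 had the mouse as a term. DESeq2 1.42.0, no filter, DESeq2 size factors, a replicate block, thinned sums, each left-out mouse and a stricter T cell rule were alternatives. Two-sided exact permutation tests were run on shares (scipy 1.17.1); counting intervals are 95% and, like floors of 3 counts, cover counting error only. The tests were tried on simulated counts. Promoter sequences are from RefSeq, GRCm38.p6.

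Named genes were the 10 largest changes per direction among passing genes whose groups did not overlap and whose mean reached 20 CPM in either group, up to 4 passing members of each of 27 lists (or the 2 most abundant), and a fixed set of type 3, type 2 and T cell genes; further list members and genes of the CD3 split were named after their values were seen. Some genes are not reported here. The members and lists were chosen with earlier results of these data known.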

Additional observations from a re-analysis of the deposited data

Results flagged for a closer look

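For these genes the change with Il23mc differed between ILC3-annotated cells and ILC2 of the same mice by the interaction test in edgeR (adjusted p below 0.05). Values are the log2 change in ILC3-annotated cells minus that in ILC2. Among cytokine and chemokine genes the difference was -3.42 for Il5, -1.21 for Il13, -1.85 for Csf2, -4.13 for Ccl1 and 4.73 for Cxcl3, and among receptor and costimulatory genes -4.66 for Cd70, -4.37 for Cd83 and 2.08 for Tcrg-C1. It was -1.95 for the factor Gata3. Effector and membrane genes on the positive side were Gzmb with 4.43, the inflammasome sensor Nlrp3 with 4.47, Ifitm2 with 3.24 and Ifitm3 with 3.43, which resemble each other so that reads may be split, the glutathione transferase Gstt2 with 3.55, the GTPase regulator Srgap3 with 3.62, the ciliary gene Cluap1 with 2.69 and the pseudokinase Trib2 with 2.47. On the negative side were the serotonin-synthesis enzyme Tph1 with -7.24, Dgat2 of triacylglycerol synthesis with -3.43, Dmxl2 with -3.83, Nrip3 with -3.71, the secretory GTPase Rab27b with -3.72, the ubiquitin ligase Rnf128 with -3.74 and Tex15 with -3.86. Of these genes Il13, Csf2, Cd70, Tcrg-C1, Gstt2, Cluap1, Nrip3 and Tex15 lost the call in at least 1 fit without 1 mouse. The count of genes passing this test fell from 338 to 32 without CD3-transcript cells.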

How the results depend on the processing

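Over all ILC3-annotated cells 1691 genes passed. DESeq2 gave 780, the replicate block 941, ILC3-1 cells alone 1095 and the sums thinned to the smallest total 2 (103 at an unadjusted p below 0.05), where every call was higher; leaving out 1 mouse gave 803 to 2437. Without CD3-transcript cells 372 passed. Thinned sums gave 8, cells with no UMI of 10 T cell receptor genes 11 of 227 tested (4, 13 and 18 healthy and 4, 3 and 2 Il23mc cells), and leaving out 1 mouse 213 to 353. The interaction gave 338, against 32 without CD3-transcript cells (43.8% of them positive, beside 31.1%), 150 with the hashtag number as replicate block in place of the mouse, and 174 to 519 with 1 mouse left out. No filter, DESeq2 size factors, ILC3-2 cells alone, the further healthy hashtag of experiment 2, and DESeq2 and the block without CD3-transcript cells kept the counts within 1.5-fold.

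The share of ILC3 (difference 0.20 points) was -0.60 over ILC2 and ILC3 alone, -23.2 without CD3-transcript cells and -14.9 to 15.6 with 1 mouse left out. The share with Cd3d or Cd3e (62.2 points) was 50.4 to 82.3 with 1 mouse left out, 60.4 in cells thinned to 2000 UMIs, 60.3 with at least 2 UMIs and 2.63 for any UMI of 10 T cell receptor genes, which nearly all cells of both groups hold. The share of ILC3-1 (-3.08 points) was -5.38 to 0.66 with 1 mouse left out and -21.4 without CD3-transcript cells.

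Signs turned in thinned sums for Ccr6 (0.21) and Cox5a (-1.55) over all cells and for Atp5b (0.41) and Trbc1 (0.059) without CD3-transcript cells, and in the interaction without those cells for Dusp1 (0.36) and Plin2 (-0.27). The cause was not tested, but thinning leaves far fewer counts. Of 92 named genes that passed over all cells 74 kept the call in every fit without 1 mouse, of 66 without CD3-transcript cells 35, and of 67 in the interaction 39. Mouse numbers are hashtag numbers, and the samples were treated as unpaired. Same-numbered deviations correlated at 0.0008, 0.012 and -0.054 over all cells, and unlike-numbered ones at -0.045 to 0.051. Without CD3-transcript cells the values were 0.111, 0.049 and 0.016 against -0.088 to 0.032. With 3 mice a group, these correlations cannot decide whether the numbers pair the mice. The runs with ILC3-1 or ILC3-2 alone, the experiment 2 hashtag and any T cell receptor gene were chosen after seeing the data. Depth limits Il23mc mouse 3 most, with 118674 UMIs over 28 cells.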
